A study of Mus musculus with 12 samples.

Results

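*Ass1* and 9 other genes of arginine metabolism (*Asl*, *Arg1*, *Arg2*, *Oat*, *Aldh18a1*, *Odc1*, *Srm*, *Slc7a1* and *Slc7a3*) were followed in polyA+ RNA of mouse embryonic stem cells depleted of *Srrm2* by RNA interference. They are 10 of the 42450 genes of the count table, found by their symbols. *Ass1* was chosen by its measured expression, because the study names it among the genes that were lower after depletion of *Srrm2*, so its values are given as a description and without a test. The other 9 genes were taken for their place in the pathway, with earlier results of these data known. *Arg1* did not pass the filter on low counts, which left 9 of the 10 genes fitted and 8 tested.

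All libraries came from wild-type E14tg2a.4 cells, a male line of mouse embryonic stem cells, and all 4 groups were cultured with LIF, a cytokine that keeps such cells self-renewing. The cells received 50 nM siRNA against *Srrm2*, which encodes a scaffold protein of nuclear speckles (Srrm2-KD), or, as a control, a siRNA for Gl2, the luciferase gene of the firefly, which these cells lack (Gl2-KD), and were collected at 24 h or at 72 h. The cells collected at 72 h were transfected again 24 h after the first transfection, so time and number of transfections cannot be told apart. Each of the 3 experiments gave 1 library per group, and the libraries held between 73933196 and 153343831 estimated counts. Levels are counts per 1000000 counts of a library, scaled by the trimmed mean of M-values (CPM), differences are fitted log2 fold changes with their standard error (SE), and a gene was called at an edgeR adjusted p below 0.05.

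Arginine is taken up by cationic amino acid transporters of the SLC7 family or made from citrulline, which argininosuccinate synthetase (ASS1) joins to aspartate and argininosuccinate lyase (ASL) splits into arginine and fumarate. Arginases turn arginine into ornithine and urea. Ornithine is decarboxylated to putrescine by ODC1, and spermidine synthase (SRM) extends putrescine to spermidine. OAT and ALDH18A1 lie on the mitochondrial routes between ornithine, proline and glutamate. Polyamines are needed for growth of dividing cells such as embryonic stem cells, and *Odc1* is a well-known target of the transcription factor MYC.

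*Ass1* lies at chr2:31470207-31520672 on the plus strand (GRCm38) and *Odc1* at chr12:17544794-17551505 on the plus strand. The 250 bases before the RefSeq transcription start (GRCm38.p6) are shown for these genes, *Ass1* because the report opens with it and *Odc1* because it was called at both siRNAs over time. Capitals mark the E-box CACGTG and the GC box GGGCGG on either strand. The *Ass1* window spans chr2:31470020-31470269 and the *Odc1* window chr12:17544623-17544872, and in both the GENCODE gene model starts within the window.
Ass1: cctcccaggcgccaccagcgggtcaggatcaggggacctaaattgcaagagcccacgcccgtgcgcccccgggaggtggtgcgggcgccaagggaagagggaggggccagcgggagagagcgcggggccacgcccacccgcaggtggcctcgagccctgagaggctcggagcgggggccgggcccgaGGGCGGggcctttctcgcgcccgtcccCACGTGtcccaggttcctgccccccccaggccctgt
Odc1: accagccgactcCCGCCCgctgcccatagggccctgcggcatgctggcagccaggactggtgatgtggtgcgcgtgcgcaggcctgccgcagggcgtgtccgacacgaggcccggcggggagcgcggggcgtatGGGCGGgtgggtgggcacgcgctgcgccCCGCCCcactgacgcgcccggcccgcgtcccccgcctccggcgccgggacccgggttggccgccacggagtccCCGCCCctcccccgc
The *Ass1* window held 1 E-box, 36 bases before the RefSeq start, and 1 GC box. The GENCODE start of *Ass1*, chr2:31470207, lies before this E-box, which is thus inside that gene model. The *Odc1* window held 4 GC boxes and no match to CACGTG. Of all 32851 RefSeq windows of this length, 6.02% held CACGTG and 32.7% held GGGCGG. Windows were at hand for 5 of the 10 genes. Of these, *Ass1* and *Aldh18a1* held the E-box, and *Ass1*, *Odc1*, *Aldh18a1* and *Slc7a1* held the GC box. These matches describe the sequence and are not evidence of binding.

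The targeted gene *Srrm2* was lower in Srrm2-KD than in Gl2-KD in all 6 pairs of libraries, with log2 fold changes of -1.22 (SE 0.14, adjusted p = 0.0663) at 24 h and -1.16 (SE 0.14, adjusted p = 0.0991) at 72 h. It was thus not called in the edgeR fit reported here. It was called under 6 of 24 alternatives at 24 h and 9 of 24 at 72 h, DESeq2 and limma-voom among them. At both times these also held other edgeR fits. The study, whose edgeR model held the RNA processing day, reports *Srrm2* as lower at both times. The *Srrm2* level also differed between experiments. It was 2.29 times as high in experiment 1 as in experiments 2 and 3, so the groups overlapped. The 7 embryonic stem cell markers, among them *Pou5f1* and *Nanog*, were all above 1 CPM. Their summed level at 24 h was 4063 to 4439 CPM in Gl2-KD and 3840 to 4363 CPM in Srrm2-KD. At 72 h it was 3648 to 3932 CPM in Gl2-KD and 3437 to 3515 CPM in Srrm2-KD, the lowest group. This sum was not tested. *Pou5f1* gave the largest part of it, at a mean of 1541 CPM over the 12 libraries. Between siRNAs at 72 h, *Zfp42* had a log2 fold change of 0.20 (SE 0.10, adjusted p = 0.414) and was higher in 3 of 3 experiments. The values of the other markers lay between -0.44 and -0.09, and none was called. In bulk RNA, fewer cells with a transcript and less transcript per cell cannot be told apart.

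*Ass1* lay between 106.3 and 145.1 CPM in 3 of the 4 groups and between 189.2 and 204.5 CPM in Gl2-KD at 72 h. In Gl2-KD, experiments 1, 2 and 3 gave 118.8, 135.2 and 138.3 CPM at 24 h and 193.7, 204.5 and 189.2 CPM at 72 h. In Srrm2-KD they gave 117.9, 131.8 and 106.3 CPM at 24 h and 145.1, 125.3 and 121.8 CPM at 72 h. The 3 libraries of Gl2-KD at 72 h were thus above all 9 others, and the other 3 groups overlapped.

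**Figure D1:**
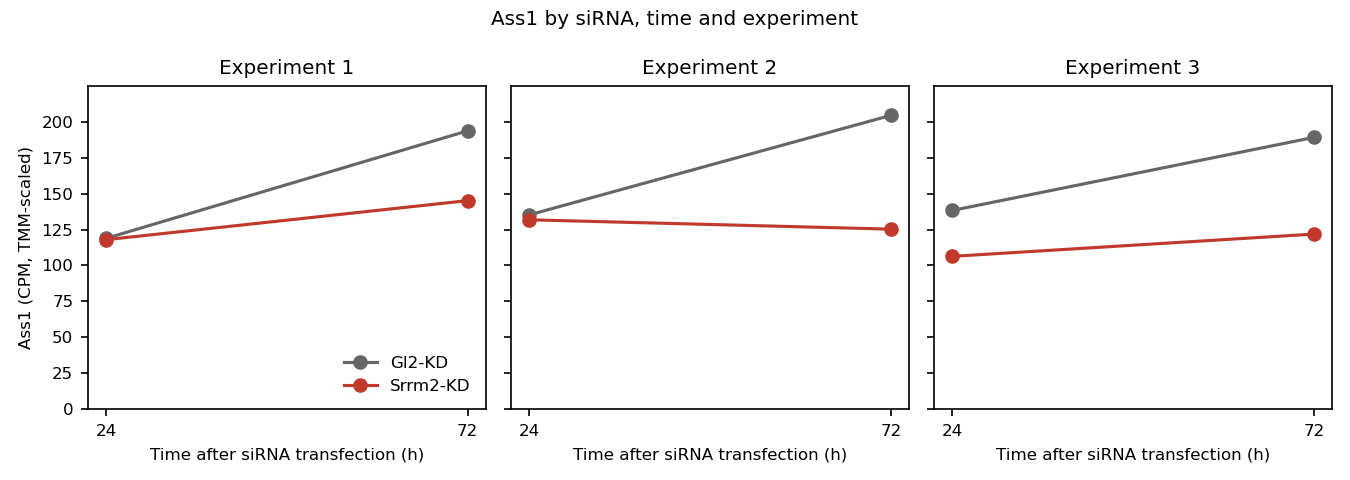
*Ass1* level in CPM (y axis, from 0) at 24 h and 72 h (x axis) in each of 3 experiments, with Gl2-KD in grey and Srrm2-KD in red and 1 library per point. In every experiment the grey line rises to between 189.2 and 204.5 CPM at 72 h, while the red points at 72 h lie between 121.8 and 145.1 CPM.

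Between siRNAs, the fitted log2 fold change of *Ass1* was -0.14 (SE 0.11) at 24 h and -0.58 (SE 0.11) at 72 h. The 72 h ratios in experiments 1, 2 and 3 were -0.42, -0.71 and -0.63 on the log2 scale. Between times, its log2 fold change was 0.58 (SE 0.11) in Gl2-KD, with 0.71, 0.60 and 0.45 in the 3 experiments, and 0.14 (SE 0.11) in Srrm2-KD, with 0.30, -0.07 and 0.20. The comparison of siRNAs at 72 h and the comparison of times in Gl2-KD share the 3 libraries of Gl2-KD at 72 h, so the values of -0.58 and 0.58 are not independent of each other. The difference between the siRNA effects at the 2 time points was -0.44 (SE 0.15), and it was negative in each experiment (-0.41, -0.67 and -0.26).

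The summed level of 4 trophectoderm markers was also highest in Gl2-KD at 72 h. It was 88.4 to 100.3 CPM in Gl2-KD at 72 h and 51.8 to 77.5 CPM in the other groups. *Tfap2c*, which embryonic stem cells also express, made up most of it, at 84.5 to 95.0 CPM in Gl2-KD at 72 h. *Cdx2* stayed at or below 0.21 CPM and *Elf5* at or below 0.45 CPM in every library, and *Eomes* lay between 1.96 and 5.79 CPM. The embryonic stem cell sum in Gl2-KD at 72 h, 3648 to 3932 CPM, overlapped only Srrm2-KD at 24 h (3840 to 4363 CPM). It was below Gl2-KD at 24 h (4063 to 4439 CPM) and above Srrm2-KD at 72 h (3437 to 3515 CPM). The neural, fibroblast, mesoderm and primitive endoderm sums overlapped between Gl2-KD at 72 h and the other groups. Neural markers summed to 72.7 to 83.1 CPM there and 57.2 to 86.7 CPM in the other groups. Fibroblast markers summed to 4.83 to 24.8 CPM and 3.89 to 23.2 CPM, and mesoderm markers to 4.07 to 8.01 CPM and 3.62 to 8.71 CPM. Primitive endoderm markers summed to 2.13 to 2.85 CPM and 1.34 to 3.53 CPM. The part of other cells in the *Ass1* values was not tested.

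Of the 10169 genes tested with a mean of at least 5 CPM, those whose log2 CPM followed *Ass1* most closely over the 12 libraries, after removal of each experiment's mean, were *Pnkd* (Pearson r = 0.975), *Mfsd12* (0.966), *Mthfsd* (0.964), *Rab18* (0.959) and *Man2b1* (0.958). These correlations are a description over libraries that share 3 experiments and 4 groups. *Pnkd*, the nearest, averaged 69.8 CPM in Gl2-KD at 72 h and 47.0 to 50.5 CPM in the other groups. *Man2b1*, which encodes a lysosomal alpha-mannosidase, averaged 78.0 CPM in Gl2-KD at 72 h and 52.8 to 59.0 CPM elsewhere.

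*Asl*, which encodes the enzyme that follows ASS1, did not share this pattern. In experiments 1, 2 and 3 it was at 27.8, 29.7 and 43.7 CPM in Gl2-KD at 24 h, 23.5, 36.7 and 52.9 CPM in Gl2-KD at 72 h, 26.3, 29.9 and 44.0 CPM in Srrm2-KD at 24 h and 23.6, 37.0 and 47.3 CPM in Srrm2-KD at 72 h. The 4 groups overlapped throughout, and experiment 1 was lowest and experiment 3 highest in each of them. Its log2 fold changes lay between -0.05 and 0.11 in the 4 comparisons, each with an SE of 0.13, and none was called. Per kilobase of exon, the level of *Ass1* was 4.84 to 16.5 times that of *Asl*, with the highest ratio in Gl2-KD at 72 h of experiment 1.

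**Figure D2:**
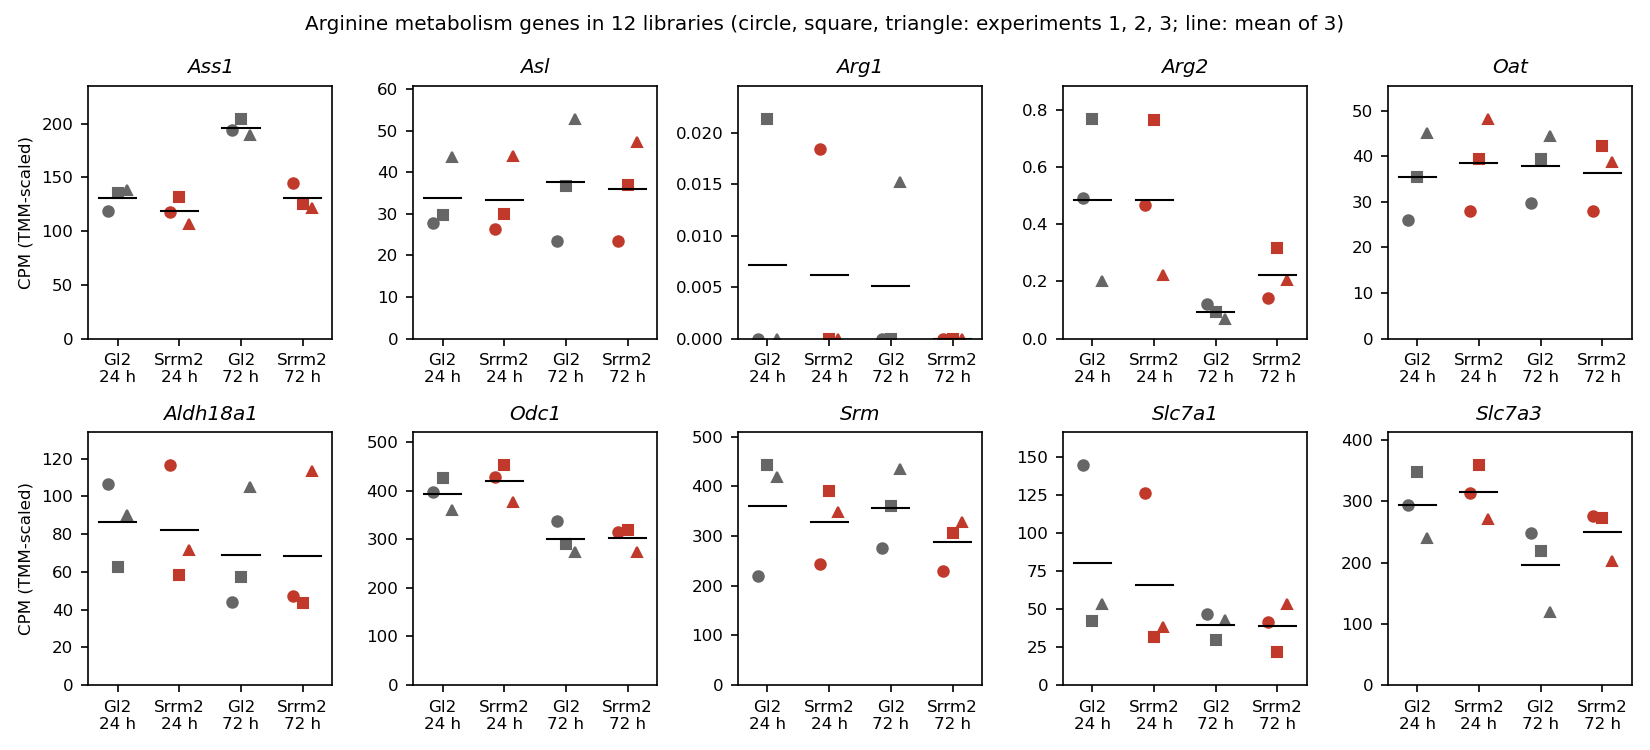
Level of each of the 10 genes in CPM (y axes, each from 0 and each on its own scale) in the 4 groups (x axis), with Gl2-KD in grey, Srrm2-KD in red, experiments 1, 2 and 3 as circle, square and triangle, and the mean of 3 libraries as a line. *Ass1* stands apart in Gl2-KD at 72 h, *Odc1* is lower at 72 h with both siRNAs, and *Slc7a1* is highest in experiment 1 at 24 h.

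The arginases were at or near the limit of detection. *Arg1*, the cytosolic arginase of liver, was at 0 in 9 of 12 libraries and had at most 3 counts in the others, where 3 counts are worth 0.0185 to 0.0409 CPM, so a difference between groups was not detectable at this depth. *Arg2*, the mitochondrial arginase, had 9 to 108 counts per library. It was at 0.49, 0.77 and 0.20 CPM in Gl2-KD at 24 h and at 0.12, 0.09 and 0.07 CPM in Gl2-KD at 72 h.

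In Srrm2-KD *Arg2* was at 0.47, 0.76 and 0.22 CPM at 24 h and at 0.14, 0.32 and 0.20 CPM at 72 h. The 3 libraries of Gl2-KD at 72 h were below the 9 others, the opposite of *Ass1*. *Arg2* fell by 2.21 on the log2 scale from 24 h to 72 h in Gl2-KD (SE 0.46, adjusted p = 0.0438). Its values in the other comparisons were -1.04 (SE 0.44, adjusted p = 0.277) for time in Srrm2-KD, 1.18 (SE 0.47, adjusted p = 0.33) between siRNAs at 72 h and 0.01 (SE 0.41, adjusted p = 1) at 24 h. The difference between the siRNA effects at the 2 time points was 1.17 (SE 0.63, adjusted p = 1).

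The *Arg2* call was not held by 13 of 23 alternatives, among them each fit that left out a Gl2-KD library (adjusted p 0.0626 to 0.24). A stretch of 285 bases of *Arg2* also matches the opposite strand of *Vti1b*, which had 27.5 to 53.4 CPM. The sources do not state whether counting used strand, so the low counts of *Arg2* are uncertain. *Vti1b* had a log2 fold change of 0.21 (SE 0.10) over time in Gl2-KD, of opposite sign to *Arg2*.

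Of the enzymes that use ornithine, *Odc1* was lower at 72 h than at 24 h with both siRNAs. In Gl2-KD, experiments 1, 2 and 3 gave 396.5, 426.5 and 359.5 CPM at 24 h and 337.1, 289.7 and 272.9 CPM at 72 h. In Srrm2-KD they gave 428.7, 452.1 and 376.7 CPM at 24 h and 316.0, 318.2 and 274.0 CPM at 72 h. Within each siRNA, all 3 libraries at 72 h were below all 3 at 24 h.

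*Odc1* fell by 0.39 on the log2 scale in Gl2-KD (SE 0.08, adjusted p = 0.0488) and by 0.47 in Srrm2-KD (SE 0.08, adjusted p = 0.0467). Between siRNAs it was not called, at 0.09 (SE 0.08, adjusted p = 1) at 24 h and 0.01 (SE 0.08, adjusted p = 0.965) at 72 h. The time calls lay close to the threshold: 17 of 23 alternatives lost the call in Gl2-KD and 18 of 23 lost it in Srrm2-KD, while the values stayed between -0.48 and -0.32 and between -0.51 and -0.45. *Odc1* has many processed copies, and the 10 on its strand that the table lists held 0.0976% of its counts, and AW146154, which resembles it on the opposite strand, held as many as 2.04%.

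*Srm* was at 219.9, 441.9 and 419.3 CPM in Gl2-KD at 24 h, 275.6, 360.9 and 434.2 CPM in Gl2-KD at 72 h, 243.2, 389.6 and 349.2 CPM in Srrm2-KD at 24 h and 229.1, 306.2 and 328.0 CPM in Srrm2-KD at 72 h. Experiment 1 was lowest in every group, and the groups overlapped. At 72 h the 3 Srrm2-KD libraries each held less *Srm* than their Gl2-KD partners, with a log2 fold change of -0.30 (SE 0.12, adjusted p = 0.326), which was not called. Over all genes tested, 42.2% kept 1 sign in 3 of 3 experiments in this comparison. Per kilobase, *Odc1* was at 0.295 to 0.847 of the level of *Srm*.

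*Oat* varied with the experiment rather than with siRNA or time. It was at 25.9, 35.5 and 45.2 CPM in Gl2-KD at 24 h, 29.7, 39.3 and 44.5 CPM in Gl2-KD at 72 h, 28.0, 39.5 and 48.2 CPM in Srrm2-KD at 24 h and 27.9, 42.2 and 38.8 CPM in Srrm2-KD at 72 h. The groups overlapped, and its log2 fold changes lay between -0.07 and 0.12 in the 4 comparisons, each with an SE of 0.11, with none called.

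*Aldh18a1*, which encodes the enzyme that starts proline and ornithine synthesis from glutamate, changed with time in a way that depended on the experiment. In Gl2-KD it went from 106.5 to 44.2 CPM in experiment 1, from 62.4 to 57.1 CPM in experiment 2 and from 89.97 to 104.9 CPM in experiment 3. In Srrm2-KD it went from 116.4 to 47.3 CPM, from 58.4 to 43.6 CPM and from 71.6 to 113.5 CPM. Both siRNAs thus gave the same sign and a like order within each experiment, with log2 ratios of -1.27 and -1.30 in experiment 1 and 0.22 and 0.67 in experiment 3. Its fitted time changes were -0.36 (SE 0.32, adjusted p = 0.637) in Gl2-KD and -0.37 (SE 0.33, adjusted p = 0.62) in Srrm2-KD. Between siRNAs its log2 fold change was -0.05 (SE 0.32) at 24 h and -0.06 (SE 0.32) at 72 h.

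Of the arginine transporters, *Slc7a1*, the widely expressed CAT1, also varied with the experiment. In Gl2-KD it went from 144.6 to 46.7 CPM in experiment 1, from 42.3 to 29.9 CPM in experiment 2 and from 53.37 to 42.96 CPM in experiment 3. In Srrm2-KD it went from 126.6 to 41.5 CPM, from 31.9 to 21.7 CPM and from 38.4 to 53.7 CPM. The pair of libraries of experiment 1 at 24 h stood above the 10 others. Its fitted time changes were -0.81 (SE 0.33, adjusted p = 0.248) in Gl2-KD and -0.55 (SE 0.34, adjusted p = 0.461) in Srrm2-KD, and between siRNAs its log2 fold changes were -0.33 (SE 0.33) at 24 h and -0.07 (SE 0.33) at 72 h.

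With both siRNAs averaged, the time change of *Slc7a1* spanned 1.70 on the log2 scale over the 3 experiments and that of *Aldh18a1* spanned 1.73. The median span over the 19410 genes was 0.59, and 11.1% and 10.9% of genes had a span as large as these. *Odc1* lay at the other end, with a span of 0.19 that 90.5% of genes reached or passed, and *Ass1* spanned 0.24. Which libraries shared an RNA processing day is not stated, and the part of that day in these spans was not tested.

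**Figure D3:**
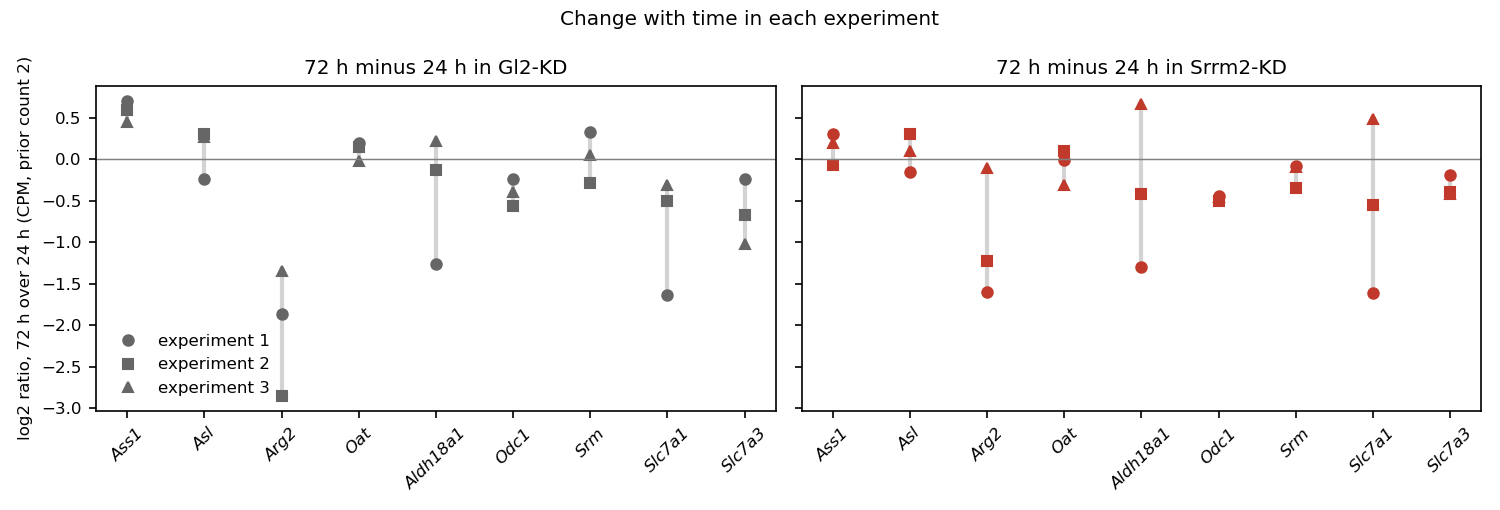
Log2 ratio of 72 h over 24 h (y axis, CPM with a prior count of 2) in experiments 1, 2 and 3 (circle, square, triangle) for the 9 genes fitted (x axis), with Gl2-KD left in grey and Srrm2-KD right in red, and a grey bar from the lowest to the highest. *Odc1* lies between -0.56 and -0.23 in all 6 pairs, while *Aldh18a1* runs from -1.30 to 0.67 and *Slc7a1* from -1.63 to 0.48.

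*Slc7a3* (CAT3), on the X chromosome, was lower at 72 h than at 24 h in each experiment, with the lowest levels in Gl2-KD. In Gl2-KD it was at 293.3, 348.6 and 240.3 CPM at 24 h and at 248.6, 218.4 and 118.7 CPM at 72 h. In Srrm2-KD it was at 313.9, 358.6 and 271.7 CPM at 24 h and at 275.8, 272.5 and 203.3 CPM at 72 h. The groups overlapped across experiments, although every 72 h library was below its 24 h partner.

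The time change of *Slc7a3* in Gl2-KD, -0.63 (SE 0.14, adjusted p = 0.0527), missed the threshold and was called under 9 of 23 alternatives. Its time change in Srrm2-KD was -0.34 (SE 0.14, adjusted p = 0.265). Between siRNAs, each Srrm2-KD library at 72 h was above its Gl2-KD partner, with a log2 fold change of 0.40 (SE 0.14, adjusted p = 0.284), and the value was 0.11 (SE 0.14, adjusted p = 1) at 24 h. The difference between the siRNA effects at the 2 time points was 0.29 (SE 0.20, adjusted p = 1). Per kilobase, the level of *Slc7a3* was 6.18 to 38.3 times that of *Slc7a1*.

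**Figure D4:**
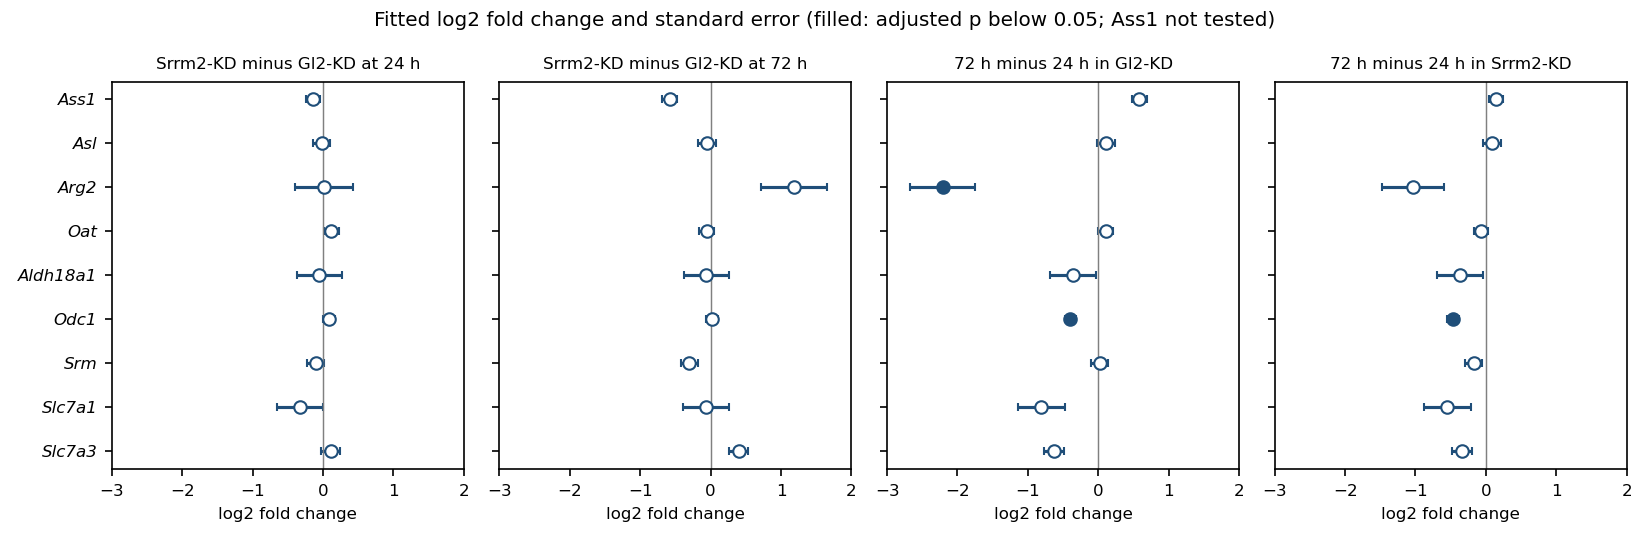
Fitted log2 fold change (x axis) with its SE for the 9 genes fitted (y axis) in the 4 comparisons, with filled points for adjusted p below 0.05 and *Ass1* left untested. The filled points are *Arg2* and *Odc1* over time in Gl2-KD and *Odc1* over time in Srrm2-KD.

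Ordered by level per kilobase of exon over all 12 libraries, *Srm* came first at a mean of 208 CPM per kilobase, followed by *Odc1* (104), *Slc7a3* (69.7), *Ass1* (59.6), *Aldh18a1* (18.7), *Oat* (15.7), *Asl* (7.29), *Slc7a1* (4.87), *Arg2* (0.226) and *Arg1* (0.00206). Neighbours in this order were separated in all 12 libraries, except that *Slc7a3* was above *Ass1* in 9, *Aldh18a1* above *Oat* in 6 and *Asl* above *Slc7a1* in 10. The 3 libraries with *Ass1* above *Slc7a3* were those of Gl2-KD at 72 h, where the group means were 81.1 and 51.6 CPM per kilobase. Per kilobase of annotated exon, *Srm* and *Odc1*, which act in polyamine synthesis, were thus above the other genes in all 12 libraries, and the arginases below them.

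Counted over the 8 genes tested, 0 were called between siRNAs at 24 h and 0 at 72 h, where 0% of all 19410 genes were called at either time. At an unadjusted p under 0.05 there were 0 at 24 h and 3 at 72 h (*Arg2*, *Srm* and *Slc7a3*), beside 2.62% and 12.9% of all genes, and DESeq2 and limma-voom called 0 of the 8 at both times. Over time, 2 of 8 were called in Gl2-KD (*Arg2* and *Odc1*, both lower) and 1 of 8 in Srrm2-KD (*Odc1*), where 1.45% and 0.551% of all genes were called, and 0.706% and 0.361% were called lower. The median log2 fold change of the 8 was -0.38 in Gl2-KD and -0.35 in Srrm2-KD, against 0.02 and 0.00 over all genes. The difference between the siRNA effects at the 2 time points was called for 0 of the 8, for 0% of all genes and, at an unadjusted p under 0.05, for 0 of the 8 and 1.64% of all genes.

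Groups that did not overlap were found for 2 of the 9 genes fitted between siRNAs at 72 h (*Ass1* and *Arg2*), beside 6.66% of all genes, and for 0 at 24 h, beside 3.44%. Over time they were found for 3 of 9 in Gl2-KD (*Ass1*, *Arg2* and *Odc1*), beside 7.27%, and for 1 of 9 in Srrm2-KD (*Odc1*), beside 7.48%. *Ass1* was chosen for its values at 72 h, so its part in these counts is a description. The same sign in 3 of 3 experiments was seen for 5 of the 9 genes between siRNAs at 24 h (32.8% of all genes) and 4 at 72 h (42.2%), and over time for 5 in Gl2-KD (36.6%) and 4 in Srrm2-KD (33.1%). For time these were *Arg2*, *Odc1* and *Slc7a3*, lower with both siRNAs, together with *Slc7a1* (lower) and *Ass1* (higher) in Gl2-KD and *Srm* (lower) in Srrm2-KD.

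A wider list of 67 genes around arginine, of which 63 were tested, covered the urea cycle, nitric oxide and methylarginines, polyamines, proline and glutamate, creatine, and arginine transport and sensing. Over time in Gl2-KD 1 of 63 was called higher, beside 0.747% of all genes, and 1 was called lower, beside 0.706%. In Srrm2-KD 1 was called higher, beside 0.191% of all genes, and 2 were called lower, beside 0.361%. *Glul*, which encodes glutamine synthetase, was at 613, 643 and 248 CPM at 24 h and 341, 237 and 152 CPM at 72 h in Gl2-KD, and at 528, 483 and 252 CPM and then 304, 236 and 158 CPM in Srrm2-KD. Each 72 h library was below its 24 h partner, although the groups overlapped. *Glul* fell by 1.01 in Gl2-KD (SE 0.14, adjusted p = 0.0119) and by 0.83 in Srrm2-KD (SE 0.14, adjusted p = 0.044).

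*Sat2*, named after spermidine acetyltransferase although its product acts mainly on thialysine, was at 1.42 to 2.72 CPM at 24 h and 2.58 to 6.45 CPM at 72 h in Gl2-KD, and at 1.17 to 2.45 CPM and then 2.02 to 5.10 CPM in Srrm2-KD. It rose by 1.19 on the log2 scale in Gl2-KD (SE 0.22, adjusted p = 0.0316) and by 1.21 in Srrm2-KD (SE 0.22, adjusted p = 0.0492), higher in 3 of 3 experiments each time. *Ddah1*, whose product degrades methylated arginines that inhibit nitric oxide synthases, was at 20.5, 28.2 and 9.53 CPM at 24 h and 7.18, 8.74 and 6.53 CPM at 72 h in Srrm2-KD. There it fell by 1.26 (SE 0.22, adjusted p = 0.0467), and its change in Gl2-KD was -0.997 (SE 0.22, adjusted p = 0.0509). These calls were lost under 5 of 23 alternatives for *Glul* in Gl2-KD, 10 for *Sat2* in Gl2-KD, and 14, 17 and 14 for *Glul*, *Sat2* and *Ddah1* in Srrm2-KD.

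Between siRNAs at 72 h 0 of 63 genes of the wider list were called in the edgeR fit reported here. An unadjusted p under 0.05 was found for 6, where 12.9% of all genes had one. The values were below 0 for 47 genes and above 0 for 16, with a median of -0.08 against -0.02 over all genes. The 3 genes with the smallest p were *Ckb*, the brain creatine kinase (-0.74, SE 0.16, adjusted p = 0.138), *Smox*, spermine oxidase (-0.77, SE 0.23, adjusted p = 0.221) and *Dhps*, which starts hypusine formation from spermidine (0.27, SE 0.09, adjusted p = 0.254). *Ckb* was at 224.8, 359.6 and 399 CPM in Gl2-KD and 140, 190 and 253 CPM in Srrm2-KD at 72 h. *Smox* was at 10.93, 15.03 and 12.04 CPM in Gl2-KD and 7.12, 6.59 and 7.97 CPM in Srrm2-KD. Its groups did not overlap, which held for 6.66% of all genes in this comparison. DESeq2 called *Ckb* and *Smox*, where it called 2.79% of all genes. A fit of the 6 libraries at 72 h alone called these with *Ckmt1* and *Gamt*, which also act in creatine metabolism, beside 1.78% of all genes. A fit with the replicate block by time called *Ckb*, *Smox* and *Ckmt1*, beside 3.73%. Of 24 alternatives, 20 did not call *Ckb*, 21 did not call *Smox*, 22 did not call *Ckmt1* and 23 did not call *Gamt*.

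By role, the median at 72 h was -0.35 for 6 creatine genes (5 below 0) and -0.14 for 7 of nitric oxide and methylarginines (6 below 0). It was -0.13 for 10 proline and glutamate genes (10 below 0) and -0.07 for 9 of the urea cycle (7 below 0). For 14 of arginine transport and sensing it was -0.07 (9 below 0), and for 17 polyamine genes -0.03 (10 below 0). The median over all genes was -0.02, and 0 of the proline and glutamate genes had an unadjusted p under 0.05. These medians rest on genes of which 0 were called. At 24 h 0 of 63 genes were called and 0 had an unadjusted p under 0.05, with 28 values above 0 and 35 below. The 3 with the smallest p were the creatine transporter *Slc6a8* (-0.24, SE 0.11), *Mtap*, which salvages methylthioadenosine left by polyamine synthesis (-0.16, SE 0.08), and the mitochondrial creatine kinase *Ckmt1* (-0.43, SE 0.24), each with an adjusted p of 1. For the difference between the siRNA effects at the 2 time points 0 of 63 were called, and the smallest p were those of *Ckb* (-0.59, SE 0.22), *Slc7a9* (-0.81, SE 0.49) and *Gamt* (-0.87, SE 0.57), each with an adjusted p of 1.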

How the data were processed

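PolyA+ RNA was measured in 12 libraries (4 groups, 3 experiments). The deposited values are estimated counts per gene, made by the authors with Kallisto 0.46.1 (transcripts of GENCODE M24) from stranded 100-bp paired-end reads. The sources used here do not state how transcripts were summed per gene, whether strand was used, or the RNA processing day that the authors took as a covariate. Of 42450 identifiers, 42156 were matched to GENCODE M21 (GRCm38), and the 294 others held 0.175% of counts. Exon length is the union of all exons annotated for a gene in M21, not the length of the transcripts expressed. Levels per kilobase and their ratios depend on this choice.

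Rounded counts were fitted with edgeR 4.0.16 in R 4.3.3. The filter filterByExpr (minimum count 10, minimum total 15) left 19410 genes. TMM factors were used, and all 12 libraries entered a single model of group and, as a block, experiment, with glmQLFit (legacy=TRUE), glmQLFTest and Benjamini-Hochberg adjustment over all genes tested. SE was computed from the fold change and F. The common biological coefficient of variation was 0.22. After removal of group means, 18 pairs of libraries with the same experiment number had correlations across genes of 0.281 to 0.747 and 36 pairs with different numbers -0.628 to 0.231. The numbers come from the labels, and the study describes independent experiments. The tests were tested on simulated data. Transcripts with at least 90% identity over 200 bases were taken as similar copies.

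Alternatives were DESeq2 1.42.0, limma-voom (limma 3.58.1), library totals, RLE factors, no filter on low counts, no block, only the 6 libraries compared, a block by time, glmQLFit with legacy=FALSE, and omission of every library and experiment in turn. The 10 genes and the lists were chosen with earlier results of these data known. Of the wider list, the text names genes called in a comparison, or the 3 with the smallest p where none was called, and other genes named were chosen after their values were seen. The 5 genes nearest to *Ass1* were taken by correlation. Differential splicing was not analysed here.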

Additional observations from a re-analysis of the deposited data

How the results depend on the processing

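*Ass1* kept its direction in the 5 comparisons under every alternative run, with log2 fold changes of -0.71 to -0.52 between siRNAs at 72 h and 0.49 to 0.68 over time in Gl2-KD. *Ass1* was chosen for its values at 72 h, so these ranges are a description and no support for a change. Its smaller values moved more: over time in Srrm2-KD they ran from 0.014 without experiment 1 of Srrm2-KD at 72 h to 0.22 without experiment 2 (0.14 as reported), and between siRNAs at 24 h from -0.24 without experiment 1 of Gl2-KD at 24 h to -0.031 without experiment 3 (-0.14 as reported). *Srrm2* lay between -1.43 and -0.99 at 24 h and between -1.24 and -1.06 at 72 h, with adjusted p from 5.0e-11 to 1 and from 1.7e-09 to 1.0. The experiment numbers paired the libraries, and without the replicate block 0 genes and 0 of the 8 genes of arginine metabolism were called over time with either siRNA. Genes called over time in Gl2-KD numbered 282, and 1338 with DESeq2, 482 with limma-voom, 158 with only the 6 libraries compared and 624 with legacy=FALSE. In Srrm2-KD they numbered 107, and 1061, 259, 0 and 279 in the same order, and 212 without a filter on low counts. With library totals only, 111 of the genes called over time in Gl2-KD were higher and 158 lower, against 145 and 137. Between siRNAs at 24 h 0 genes were called, and 25 with DESeq2, 2 with limma-voom, 1 without a filter and 1 with legacy=FALSE. At 72 h 0 were called, and 542 with DESeq2, 4 with limma-voom, 42 without a filter, 323 with only the 6 libraries, 724 with the replicate block by time and 5 with legacy=FALSE. For the difference between the siRNA effects 0 were called, and 2 with DESeq2 and 1 without a filter. Leaving out a library or an experiment gave 0 to 10, 0 to 55, 0 to 387, 0 to 135 and 0 to 2 genes for siRNA at 24 h, siRNA at 72 h, time in Gl2-KD, time in Srrm2-KD and the difference. Of the 8 genes, 0 to 2 were then called over time in Gl2-KD and 0 in Srrm2-KD. The 6-library fits called 0 of the 8 over time, and RLE factors 0 in Srrm2-KD. Leaving out any 1 of the 12 libraries lost the *Odc1* call in Srrm2-KD (adjusted p 0.0511 to 0.317), and any but experiment 1 of Gl2-KD at 72 h lost it in Gl2-KD (0.0515 to 0.258). The cause was not tested.

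The following values crossed 0 and were not called as reported. With library totals only and without the replicate block, *Arg2* was at -0.0027 and -0.0063 between siRNAs at 24 h (0.0095 as reported) and *Srm* at -0.0139 and -0.0138 over time in Gl2-KD (0.023 as reported). Leaving out a library or an experiment gave, between siRNAs at 24 h, -0.10 to 0.10 for *Asl*, -0.50 to 0.23 for *Aldh18a1*, -0.25 to 0.0041 for *Srm*, -0.23 to 0.20 for *Arg2* and -0.0033 to 0.20 for *Slc7a3*. Between siRNAs at 72 h it gave -0.074 to 0.069 for *Odc1*, -0.46 to 0.15 for *Aldh18a1*, -0.55 to 0.20 for *Slc7a1*, -0.18 to 0.0084 for *Asl* and -0.16 to 0.042 for *Oat*. Over time it gave -0.12 to 0.16 for *Srm* and -0.67 to 0.039 for *Aldh18a1* in Gl2-KD, and -0.89 to 0.13 for *Aldh18a1*, -0.060 to 0.20 for *Asl* and -0.19 to 0.045 for *Oat* in Srrm2-KD. With 3 libraries a group and a coefficient of variation of 0.22, small differences may go uncalled.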
